A study of Mus musculus with 90 samples.

Results

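The genes described here are 10 secreted growth factors that act on blood vessels, lymphatic vessels and neighbouring cells: Vegfa, Vegfb, Vegfc, Vegfd, Pgf, Angpt1, Angpt2, Hgf, Fgf2 and Fgf7. They were chosen by symbol, and all 10 were found among the 55011 gene symbols of the count table. The table holds 90 mouse RNA-seq libraries in 29 groups of 2 to 4 libraries.

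The study asked how muscle mesenchymal stromal cells (MmSCs), the connective tissue cells of muscle, respond to exercise, to injury and to Piezo1, a channel that opens under mechanical force. MmSCs were sorted from hindlimb muscle as PDGFRa+ Sca1+ CD31- CD45- cells, 1000 to a library, and the exercised and trained mice were 8 to 10 weeks old. In 1 cohort mice were taken at day 1 after acute exercise (AEX) and in another after exercise training (EXT), each beside sedentary (SED) controls. Library names of both give the genotype as wild type (WT) and name neither Cre nor Piezo1. Another cohort carried Pdgfra-Cre with Piezo1+/+ (WT in the library names) or with Piezo1f/f (FL in them), SED or at day 1 after AEX. Its controls therefore carry Cre too, and below WT without a named cohort means Pdgfra-Cre Piezo1+/+. Piezo1f/f libraries are called mutant or labelled mutant here. MmSCs of the same 2 genotypes were also sorted at day 1 after cardiotoxin (CTX), a venom toxin that destroys muscle fibres. Cultured MmSCs received 25 uM Yoda1, a Piezo1 agonist, for 2 h, or for 4 h and 6 h. Each set had its own control, called vehicle here. The library names of these controls do not contain the word vehicle, and those of the later set read Unstim. The 2 h set is labelled Pdgfra-Cre Piezo1+/+, no genotype is labelled for the later set, and the labels do not say how long the vehicle cells were cultured. Whole tissue from Pdgfra-Cre Piezo1+/+ and Piezo1f/f mice comprised tibialis anterior (TA) at days 1, 3 and 7 after CTX, uninjured quadriceps, perfused uninjured liver and heart, and perfused heart at day 3 after CTX in skeletal muscle. Library names write Piezo1f/f as KO in TA and as FL in the other tissues. Pdgfra-Cre acts in any cell type with an active Pdgfra promoter, so it is not specific to muscle. The labels do not say that replicates come from separate animals, and p-values measure only the spread between these libraries.

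The VEGF family signals through receptor tyrosine kinases of endothelial cells. VEGF-A is the main driver of new capillaries through KDR, PlGF (encoded by Pgf) and VEGF-B bind FLT1, and VEGF-C and VEGF-D act on lymphatic vessels through FLT4. Angiopoietin 1 activates the receptor TEK and steadies vessels, and angiopoietin 2 is made mostly by endothelial cells and can oppose it. HGF activates muscle stem cells through MET, FGF2 is a broad mitogen and angiogenic factor, and FGF7 is made by mesenchymal cells for epithelial cells that carry FGFR2. VEGF-B is abundant in heart and oxidative muscle.

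In the RefSeq (GRCm38.p6) promoter table used here 8 of the 10 genes were matched. The bases before the start are shown for Fgf7 and Vegfd, which were both higher in MmSCs after CTX, and for Vegfb, which had the highest level in heart. Each run is read 5′ to 3′ on the gene's strand. The Fgf7 and Vegfb runs end at the base before the start, and the Vegfd run ends earlier, before the first annotated exon base of its 250-base window. Capitals mark the hypoxia response core GCGTG on either strand, so CACGC is the same core on the other strand.
Fgf7 (chr2:126034408-126034657, plus strand): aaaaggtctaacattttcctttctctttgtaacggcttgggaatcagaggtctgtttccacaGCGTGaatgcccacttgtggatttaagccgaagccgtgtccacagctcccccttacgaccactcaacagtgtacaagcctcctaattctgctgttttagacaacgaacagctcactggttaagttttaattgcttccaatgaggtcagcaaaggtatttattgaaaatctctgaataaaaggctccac
Vegfd (chrX:164373272-164373377, plus strand): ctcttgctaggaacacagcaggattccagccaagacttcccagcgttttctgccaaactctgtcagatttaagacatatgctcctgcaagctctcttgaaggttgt
Vegfb (chr19:6987652-6987901, minus strand): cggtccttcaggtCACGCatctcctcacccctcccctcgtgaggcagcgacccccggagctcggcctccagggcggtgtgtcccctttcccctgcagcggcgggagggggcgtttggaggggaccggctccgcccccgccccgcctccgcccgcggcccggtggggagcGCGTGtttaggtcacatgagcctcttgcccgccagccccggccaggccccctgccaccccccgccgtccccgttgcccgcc
Fgf7 has 1 such core at position -188, Vegfb has 2 at positions -237 and -81, and the Vegfd run has none. GCGTG occurs on either strand in 28.16% of 32851 RefSeq promoters of 250 bases. The other core, ACGTG, occurs in 16.57% of them, the AP-1 site TGANTCA in 6.749% and the cAMP response site TGACGTCA in 1.546%, and none of these 3 was found in the runs shown. A match is a description of the letters only.

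Total counts were 1806248 to 10258234 per MmSC library, 4051973 to 10226407 per muscle library, and 27461930 to 38376123 per heart or liver library. Levels are library-size-scaled counts (CPM), adjusted by TMM, a factor that levels the bulk of genes between libraries, and the factor ran from 0.702 to 1.43 in muscle. The factor was computed within each experiment, so CPM of SED and CTX MmSCs were scaled apart, as were those of quadriceps and TA. A gene is called where the adjusted p of edgeR's quasi-likelihood test is below 0.05. Piezo1 was not called lower in libraries labelled mutant: it was 42.8 ± 4.5 CPM (SD, n = 3) in SED WT and 62.2 ± 15 in SED mutant MmSCs, and 65.1 ± 5.3 and 53.6 ± 1.5 after CTX (adjusted p = 0.489 and 0.19). Counts over the whole gene need not show the loss of floxed exons, so genotypes are used as labelled. In MmSCs Pdgfra was 379 to 910 CPM in every library, Cdh5, which marks endothelium, at most 3.38, and Ptprc, which marks leukocytes, at most 6.74. The sum of all endothelial markers was 163 to 572 CPM in MmSC libraries and 349 to 460 CPM in quadriceps libraries, so Cdh5 alone does not stand for that list. Acta1, of muscle fibres, was at least 2224.2 CPM in every muscle library, Myh6, of cardiomyocytes, at least 20985 CPM in heart, and Alb, of hepatocytes, at least 46150 CPM in liver.

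Fgf7 and Pgf held the first and second place by level per kilobase of exon in every MmSC group except the 2 after CTX. There Fgf7 was followed by Vegfd, at 15.9 ± 2.6 CPM per kb in WT and 18.7 ± 3.1 in the labelled mutant, and then by Pgf, at 5.80 ± 1.2 and 14.6 ± 3.6, and in the labelled mutant these 2 overlap in spread. In SED WT MmSCs the level was 24.9 ± 9.3 CPM per kb for Pgf and 19.8 ± 6.0 for Fgf7 (SD, n = 3), 2 levels that overlap in spread. Angpt1, Vegfc, Vegfd and Fgf2 followed at 5.81, 5.66, 4.44 and 3.81 CPM per kb, with each neighbouring pair within its spread, and Vegfa was last at 0.505. SED cells of the first AEX cohort were also led by Pgf (31.8 ± 6.1) and those of the EXT cohort by Fgf7 (29.9 ± 5.8). Uninjured tissues were led by another gene. Vegfb came first in uninjured heart at 28.1 ± 1.8 CPM per kb, in quadriceps at 6.63 ± 0.24 and in liver at 1.70 ± 0.33. TA at day 1 after CTX was led by Pgf at 13.8 ± 2.5 CPM per kb. Second place went to Angpt1 in heart (6.12 ± 1.8) and quadriceps (2.37 ± 0.47), and to Hgf in liver (1.05 ± 0.41). Vegfa was 13.2 CPM or lower in every library, and its group means ran from 0.232 CPM in labelled mutant TA at day 3 to 8.89 CPM in MmSCs after 2 h of Yoda1.

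**Figure D1:**
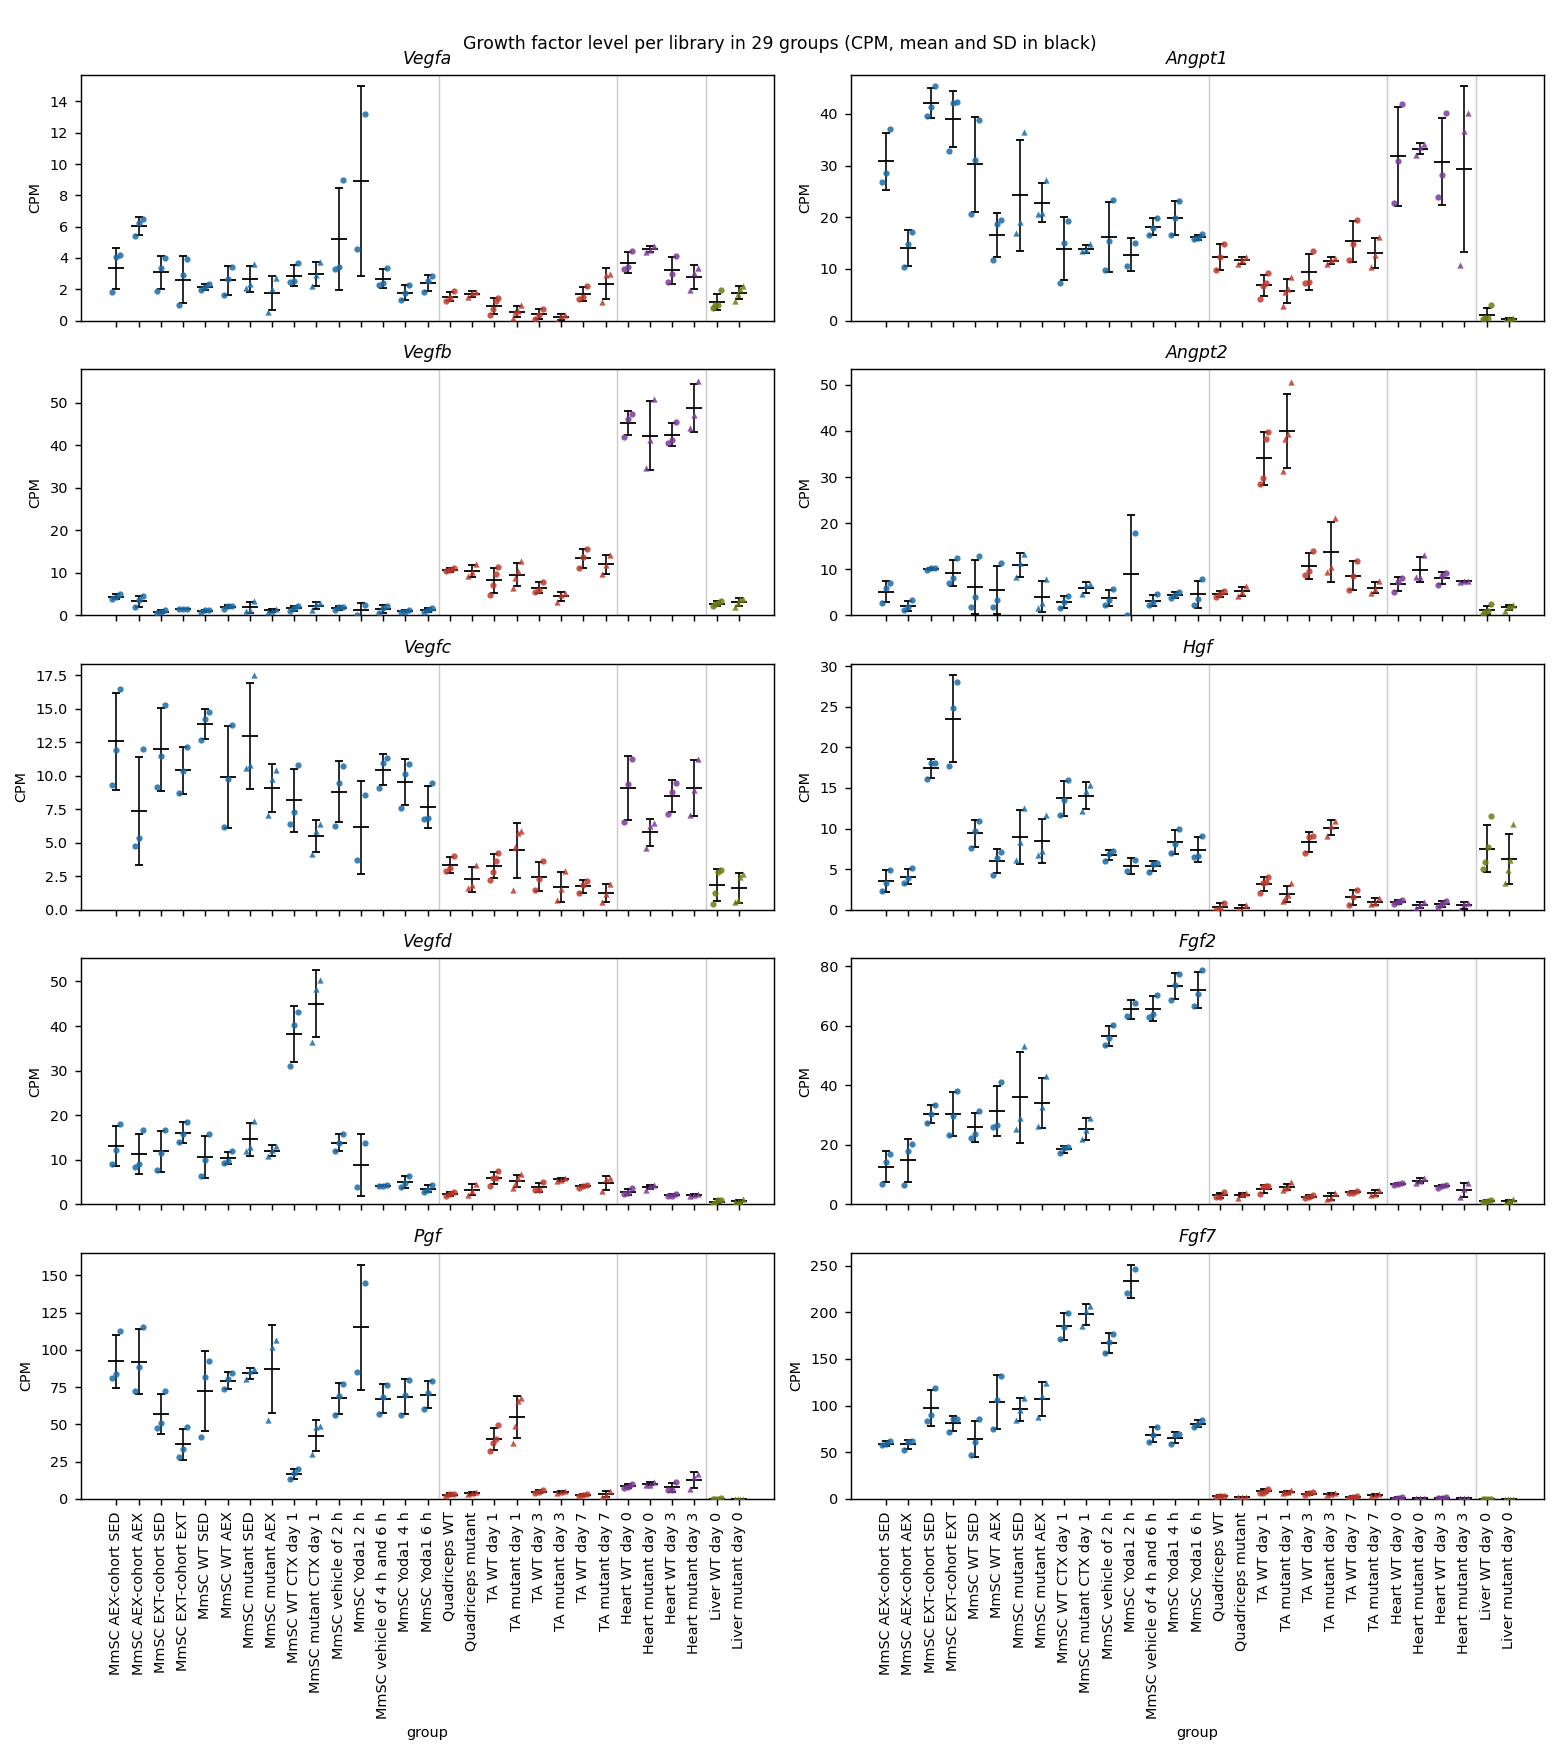
CPM of each growth factor in every library (y axis, own scale for each gene) for the 29 groups (x axis). Blue is MmSCs, red muscle, purple heart and olive liver, triangles are libraries labelled mutant, and black bars are the mean and SD. Vegfb stands out in heart, Fgf7 and Pgf in MmSCs, and Pgf and Angpt2 in TA at day 1.

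After CTX, Pgf was the 1 factor of 10 called between genotypes in MmSCs. Pgf (chr12:85166635-85177790, minus strand, mm10) was 13.2, 17.3 and 20.0 CPM in the 3 WT libraries and 48.4, 48.6 and 30.5 CPM in the 3 labelled mutant ones. Every labelled mutant library lay above every WT library. The change was 1.34 ± 0.19 on the log2 scale (SE, n = 3 and 3), with an adjusted p of 0.00345 by edgeR. Of all genes tested, 1.79% were called, 0.44% higher and 1.35% lower. Sorted pools and whole tissue cannot tell fewer cells of a type from less RNA per cell.

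The other 9 factors did not pass the test between genotypes after CTX. Unadjusted p was below 0.05 for 4 of the 10 (Pgf, Angpt2, Fgf2 and Vegfc) and for 1761 of 12957 genes. Angpt2 was 2.77, 4.21 and 1.5 CPM in WT and 6.75, 4.63 and 6.53 in labelled mutant libraries, which did not overlap (log2 1.07 ± 0.35, adjusted p = 0.148 by edgeR). Fgf2 did not overlap either, at 18.5 ± 1.1 and 25.3 ± 3.6 CPM (adjusted p = 0.153 by edgeR). Vegfc was 8.16 ± 2.3 CPM in WT and 5.48 ± 1.2 in labelled mutant libraries, with overlap. None of the 39 tested genes of the pathway lists was called. Of 3 tested macrophage markers 1 was higher in labelled mutant libraries, Lyz2, at 0.669 ± 0.74 and 6.0 ± 1.1 CPM. The macrophage marker sum was 8.42 to 9.92 CPM in WT and 15.1 to 16.9 in labelled mutant libraries, while Ptprc was at most 0.902 CPM in both. Acta2, of smooth muscle, was lower in labelled mutant libraries (36.4 ± 12.2 and 17.3 ± 1.3 CPM), and the pericyte and smooth muscle sum was 39.7 to 59.3 CPM in WT and 31.2 to 35.0 in the labelled mutant. Of the stromal markers Col3a1 was lower and Gsn higher. The lymphatic marker sum was 3280.4 to 3545.6 CPM in WT and 3756.2 to 4338.5 in the labelled mutant, nearly all of it Pdpn, which stromal cells also make and which did not pass the test (adjusted p of 0.0711 by edgeR), and Prox1 was at most 2.10 CPM. The part of these markers in the Pgf difference was not tested.

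Set against SED MmSCs of the same genotype, Fgf7 and Vegfd were higher at day 1 after CTX and Pgf, Angpt1 and Vegfc were lower, in both genotypes. No label says that CTX and SED cells were sorted together, so injury and cohort cannot be told apart. With 5 of 10 factors called in each genotype, the background was 43.9% of genes in WT (21.9% higher, 21.9% lower) and 44.6% in the labelled mutant (22.5% higher, 22.2% lower). The share of factors called is near that of all genes. The stromal marker sum was 168860 to 209090 CPM in SED and 60209 to 71660 CPM after CTX, and Pdgfra stayed at 441 CPM or more. The fibre marker sum was 19.1 to 32.4 CPM in SED and 2.32 to 4.66 after CTX. The lymphatic marker sum was 501 to 851 CPM in SED and 3280.4 to 4338.5 after CTX. That sum was nearly all Pdpn, at 608 ± 94.0 and 3397.5 ± 135 CPM in WT, the 1 lymphatic marker called of 3 tested, while after CTX Prox1 was at most 2.10 CPM and Lyve1 at most 1.01. The part of these shifts was not tested.

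Fgf7 (chr2:126034658-126091185) was 85.2, 60.7 and 46.6 CPM in SED WT and 200, 171 and 184 CPM in CTX WT libraries. In the labelled mutant it was 84.1, 108 and 95.6 CPM in SED and 201, 207 and 185 CPM after CTX. No CTX library overlapped SED, and the log2 change was 1.5 ± 0.20 in WT and 1.01 ± 0.20 in the labelled mutant (adjusted p = 2.16e-06 and 0.000218 by edgeR). Fgf7 was the highest of the 10 per kilobase after CTX in WT, at 56.9 ± 4.4 CPM per kb.

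Vegfd (chrX:164373378-164402650), a lymphatic growth factor, was 9.99, 15.7 and 6.38 CPM in SED WT and 31.1, 40.3 and 43.2 CPM in CTX WT libraries. The labelled mutant libraries were 12.8, 18.7 and 12 CPM in SED and 50.4, 36.4 and 48.3 CPM after CTX. The groups did not overlap, with log2 changes of 1.81 ± 0.26 and 1.60 ± 0.26 (adjusted p = 6.2e-06 and 2.14e-05 by edgeR). Vegfc, its closest relative, went the other way, from 13.9 ± 1.1 to 8.16 ± 2.3 CPM in WT and from 13.0 ± 3.9 to 5.48 ± 1.2 CPM in the labelled mutant. Its log2 change was -0.79 in WT and -1.27 in the labelled mutant (adjusted p = 0.0431 and 0.00217 by edgeR). The WT call is fragile: it was lost without CTX library 2 or 3 or without any 1 SED library, with log2 values from -0.84 to -0.63, and also without the filter on low counts and by DESeq2 (adjusted p of 0.101 and 0.0515).

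Pgf fell in both genotypes. SED libraries were 82.1, 92.7 and 41.7 CPM in WT and 85.6, 80.2 and 87.3 CPM in the labelled mutant, all above the CTX libraries given before. The log2 change was -2.13 ± 0.28 in WT and -1.02 ± 0.26 in the labelled mutant (adjusted p = 2.48e-06 and 0.00326 by edgeR). The difference of these changes, 1.11 ± 0.37, had an adjusted p of 0.525 by edgeR, and 0.013% of genes passed that test. None of the 10 factors was called in it, and 1 had an unadjusted p below 0.05, as had 1077 of 15414 genes. The interaction was chosen after the values were seen.

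Angpt1 (chr15:42424723-42676977, minus strand), the vessel-steadying ligand, fell in WT, from 30.2 ± 9.2 to 13.9 ± 6.1 CPM, by 1.15 ± 0.32 on the log2 scale (adjusted p of 0.00532 by edgeR). In the labelled mutant its mean was 24.2 ± 11 CPM in SED and 13.9 ± 0.77 CPM after CTX (log2 -0.83 ± 0.32, adjusted p = 0.0367). The labelled mutant call was lost without any 1 CTX library and without SED library c, which alone was at 36.6 CPM and without which the log2 change was -0.40, and also with total-count scaling. Hgf was 9.41 ± 1.7 and 13.7 ± 2.2 CPM in WT and did not pass the test (adjusted p = 0.162).

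**Figure D2:**
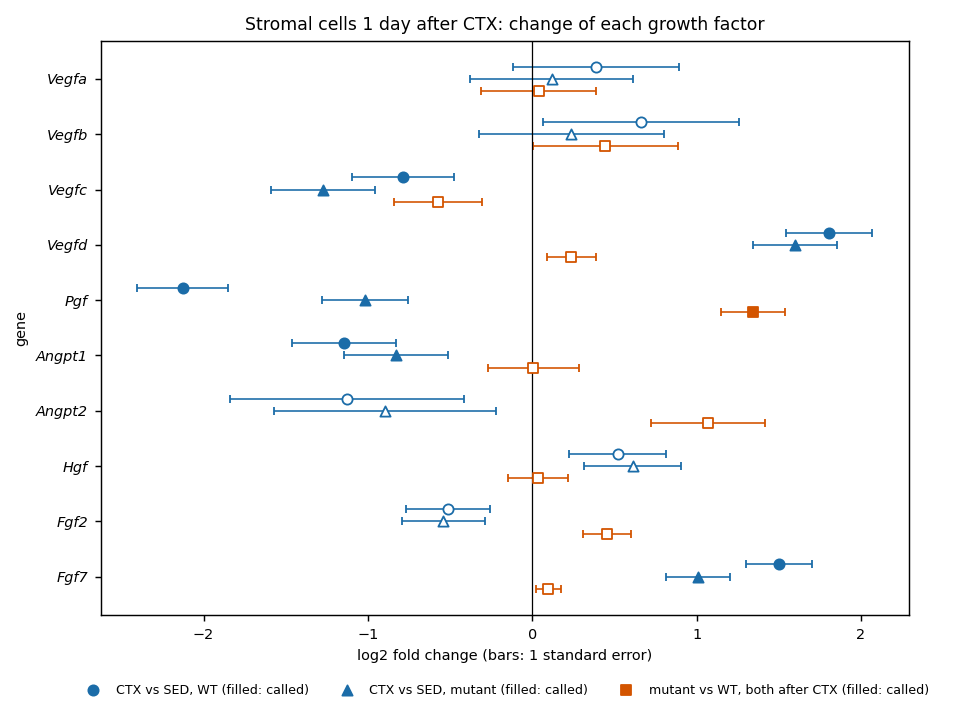
Log2 fold change of each factor (x axis, bars 1 standard error) for each gene (y axis) in MmSCs at day 1 after CTX. Filled points are called, circles and triangles compare CTX with SED in WT and labelled mutant cells, and squares compare the genotypes after CTX, where Pgf at 1.34 is the filled square.

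Of the pathway lists, 46 of 52 genes were tested in this comparison. In WT 6 were higher and 12 lower, and in the labelled mutant 6 were higher and 10 lower. These counts are to be read against the 43.9% and 44.6% of all genes called, and they do not exceed those shares. The median log2 change was -0.19 and -0.37, against -0.14 and -0.12 over all genes. Tek, the angiopoietin receptor, fell from 148 ± 16.8 to 20.2 ± 5.9 CPM in WT and from 102 ± 19.8 to 18.2 ± 2.1 CPM in the labelled mutant. Fgf1, another fibroblast growth factor, fell from 81.7 ± 20.9 to 7.63 ± 1.3 CPM in WT (log2 -3.44 ± 0.31). Plau and Plaur, the urokinase protease that can activate HGF and its receptor, rose in both genotypes, Plau from 297 ± 87.6 to 827 ± 63.4 CPM in WT. Hif1a, the hypoxia-responsive transcription factor, rose from 127 ± 34.8 to 332 ± 82.3 CPM in WT, and its relative Epas1 fell from 57.4 ± 14.6 to 25.3 ± 2.6 CPM. Ccbe1, a cofactor of VEGF-C maturation, rose from 16.7 ± 9.95 to 38.8 ± 3.2 CPM in WT. Met, the HGF receptor, fell from 6.80 ± 2.0 to 1.54 ± 0.91 CPM in WT. No receptor of the VEGF family was called in either genotype.

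No factor passed the test after exercise. After AEX in the first cohort 0 of 10 factors were called, 2 had an unadjusted p below 0.05, and 0.736% of genes were called. Of all genes, 1901 of 12777 had an unadjusted p below 0.05. Angpt1 was 37.1, 26.8 and 28.6 CPM in SED and 17.2, 10.3 and 14.8 CPM in AEX libraries, which did not overlap (log2 -1.12 ± 0.23, adjusted p = 0.0576 by edgeR). DESeq2 called Angpt1 alone, and so did edgeR without the filter on low counts. In the genotype cohort Angpt1 was 31.2, 20.6 and 38.9 CPM in SED WT and 18.6, 19.4 and 11.7 CPM in AEX WT libraries, again without overlap (log2 -0.86 ± 0.30, adjusted p = 0.208). There 0 of 10 factors were called, 2 had an unadjusted p below 0.05, and 0.992% of genes were called. Below the same unadjusted cut were 1827 of 14821 genes. Fgf7 in the same comparison was 64.2 ± 20 and 104 ± 29 CPM (adjusted p = 0.161).

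In labelled mutant MmSCs AEX again gave 0 calls among 10 factors, none with an unadjusted p below 0.05, and a background of 0.162%. Of all genes, 1175 of 14821 had an unadjusted p below 0.05. Angpt1 was 24.2 ± 11 CPM in SED and 22.8 ± 3.8 CPM after AEX, and its interaction of genotype with AEX had an adjusted p of 0.852 by edgeR. That interaction called 0 of 10 factors and 0% of genes. Labelled mutant against WT gave 0 calls of 10 at rest, with 0.00675% of genes, and 0 of 10 after AEX, with 0% of genes. Of the 10, 1 had an unadjusted p below 0.05 at rest and none after AEX or in the interaction. Of 14821 genes, 1094 had one at rest, 814 after AEX and 884 in the interaction.

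Training gave 0 calls of 9 tested factors, with 0.484% of genes called and Vegfb below the filter. Pgf was 47.4, 72.2 and 50.7 CPM in SED and 48.1, 27.9 and 33.6 CPM in EXT libraries, which overlapped (log2 -0.64 ± 0.21, adjusted p = 0.209 by edgeR). Hgf was 17.4 ± 1.2 and 23.6 ± 5.3 CPM (adjusted p = 0.388 by edgeR), and these 2 were the factors with an unadjusted p below 0.05. Below that cut were 1570 of 12802 genes. Of the pathway genes Slc2a1, a glucose transporter, was the 1 call after EXT, and Tek was the 1 call after AEX in WT.

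Yoda1 was followed by many calls and by none among the factors by edgeR. At 2 h 0 of 9 were called against 11.2% of genes, at 4 h 0 of 9 against 5.71%, and at 6 h 0 of 9 against 13.2%. Vegfb was below the filter in each. Unadjusted p was below 0.05 for 2 factors at 2 h and for 1 at each later time. It was below 0.05 for 3500 of 12782 genes at 2 h, and for 2450 and 3438 of 13756 at 4 h and 6 h. At 2 h Fgf7 was 156, 177 and 168 CPM with vehicle and 221 and 246 CPM with Yoda1, which did not overlap (log2 0.48 ± 0.15, adjusted p = 0.066 by edgeR). Pgf was 69.0, 56.6 and 77.3 CPM with vehicle and 145 and 85.5 CPM with Yoda1 (log2 0.78 ± 0.25, adjusted p = 0.0666), and DESeq2 called it. The 2 Yoda1 libraries differed, with Angpt2 at 0 and 17.9 CPM, and the second held 1806248 counts, the fewest of all MmSC libraries.

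Over 10 alternatives, which include leaving out either Yoda1 library, the 2 h log2 change ran from 0.38 to 0.54 for Fgf7. For Pgf it ran from 0.31 to 1.09. Without either Yoda1 library only 1 remains in the group, so calls from those fits are not given. At 4 h and 6 h Pgf was 68.7 ± 12 and 70.1 ± 9.3 CPM against 67.2 ± 9.7 CPM with vehicle. Fgf7 was 65.5 ± 5.9 and 80.7 ± 3.4 CPM against 68.9 ± 7.9 CPM, with an adjusted p of 0.132 at 6 h. The 4 h and 6 h comparisons share their vehicle libraries. Fgf2 was 53.7 CPM or more in all cultured libraries and 53.4 CPM or less in all libraries sorted directly. These values are from separate cohorts, scaled apart, and were not tested. How many other genes part in this way was not counted. Pathway calls were 3 higher and 7 lower of 41 tested at 2 h, against 11.2% of all genes called. They were 2 and 1 of 44 at 4 h, against 5.71%, and 5 and 6 of 44 at 6 h, against 13.2%. Pdgfrb was lower at each time.

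**Figure D3:**
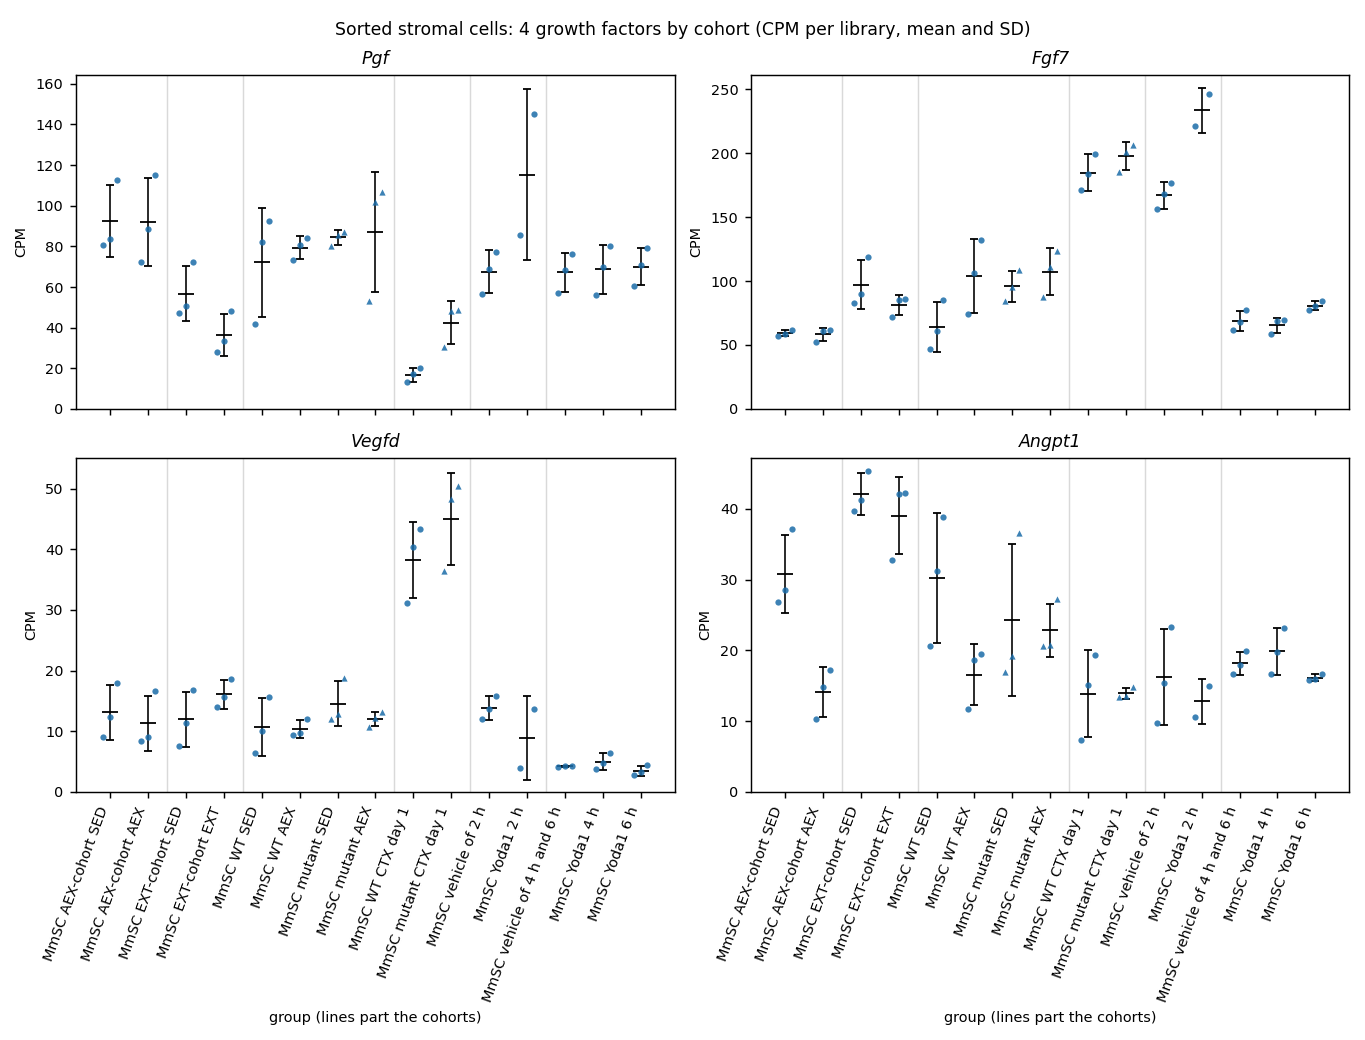
CPM of 4 factors (y axes) in every MmSC library by group (x axis), with lines between experiments. Triangles are libraries labelled mutant, and black bars are the mean and SD. Pgf has its lowest mean, 16.8, in WT after CTX, Vegfd is highest in the 2 CTX groups, and Angpt1 libraries after AEX lie below SED in the first cohort and in WT without passing the test.

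In regenerating TA, Pgf and Angpt2 were high at day 1 and Hgf peaked at day 3, in both genotypes. From day 1 to day 3, 4 of 10 factors were called in WT (1 higher, 3 lower) against 26.8% of genes (14.1% higher, 12.6% lower). In the labelled mutant 7 of 10 were called (2 higher, 5 lower) against 44.6% (22% higher, 22.6% lower). From day 3 to day 7, 5 were called in WT (2 higher, 3 lower) against 42.5% (20.1% higher, 22.4% lower), and 4 in the labelled mutant (2 higher, 2 lower) against 52.7% (25.8% higher, 27% lower). The day comparisons share the day 3 libraries.

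Cell makeup moved with these days. Macrophage marker sums in WT were 2600.5 to 3952.6 CPM at day 1, 6363 to 8193.9 at day 3 and 877 to 1529 at day 7. Endothelial sums were 890 to 1079.7, 417 to 510 and 749 to 924 CPM, and all 8 endothelial markers were lower at day 3 than at day 1 in both genotypes. Fibre marker sums were 34942 to 58027 CPM in WT at day 3 and 4428.9 to 15919 in the labelled mutant. Neutrophil sums in WT were 172 to 293, 42.7 to 77.4 and 6.28 to 11.2 CPM. The lymphatic sums were 450 to 500, 113 to 137 and 36.2 to 71.6 CPM, again mostly Pdpn, at 469 ± 22.7, 108 ± 9.6 and 42.3 ± 15.8 CPM. The part of these shifts in the factor changes was not tested.

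Scaling also bears on TA. With plain total counts in place of TMM the median gene moved by 0.20 and 0.43 (log2) from day 1 to 3 in WT and labelled mutant, and by -0.69 and -0.81 from day 3 to 7. The called genes then split into 3248 higher and 1163 lower in WT and 6119 and 1986 in the labelled mutant from day 1 to 3, against 2189 and 1960, and 3407 and 3500, with TMM. From day 3 to 7 they split into 1107 and 7768, and 1822 and 8321, against 3112 and 3478, and 3996 and 4177.

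Pgf was 32.4, 40.4, 37.3 and 49.9 CPM in WT at day 1, 6.01, 4.61 and 4.07 CPM at day 3, and 2.04, 3.06 and 2.45 CPM at day 7. The labelled mutant libraries were 65.9, 48.8, 67.4 and 37.6 CPM, then 3.79, 4.93 and 5.33 CPM, then 1.39, 2.40 and 5.43 CPM. Day 1 lay above day 3 in every library, with log2 changes of -3.03 ± 0.29 in WT and -3.53 ± 0.29 in the labelled mutant (adjusted p = 3.59e-08 and 1.51e-09 by edgeR). The further fall to day 7 was called in WT alone (log2 -0.95, adjusted p = 0.0373), a call lost without day 3 library 1 or 2 or day 7 library 1 or 3 (log2 from -0.99 to -0.79), and in a fit of these 2 groups alone.

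Angpt2 (chr8:18690263-18741562, minus strand), the antagonist ligand of endothelial cells, was 29.8, 39.8, 28.4 and 38.2 CPM in WT at day 1 and 9.49, 13.9 and 8.71 CPM at day 3. In the labelled mutant it was 50.7, 39.3, 38.2 and 31.3 CPM at day 1 and 21.2, 9.31 and 10.6 CPM at day 3. The days did not overlap (log2 -1.66 ± 0.28 and -1.58 ± 0.27, adjusted p = 6.96e-05 and 5.07e-05 by edgeR). Angpt1 was 6.84 ± 2.0 and 9.42 ± 3.5 CPM at days 1 and 3 in WT (adjusted p = 0.295), and it rose from 5.66 ± 2.3 to 11.6 ± 0.62 CPM in the labelled mutant (log2 1.04 ± 0.31, adjusted p = 0.00911). Angpt2 fell further to day 7 in the labelled mutant (log2 -1.16 ± 0.32, adjusted p = 0.00352), and by -0.73 without day 3 library 1.

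Hgf (chr5:16553495-16620152) was 4.02, 3.30, 3.40 and 2.04 CPM at day 1 in WT, 9.01, 9.13 and 6.97 CPM at day 3 and 2.38, 1.53 and 0.613 CPM at day 7. In the labelled mutant it was 1.05 to 3.35 CPM at day 1, 9.10 to 10.9 at day 3 and 0.685 to 1.47 at day 7. Day 3 lay above both other days in every library. The log2 change to day 3 was 1.38 ± 0.36 in WT and 2.37 ± 0.38 in the labelled mutant, and to day 7 it was -2.48 ± 0.43 and -3.29 ± 0.46 (adjusted p at most 0.00542 by edgeR). Sums of the satellite cell list (Pax7, Myf5, Myod1 and Myog), which also covers differentiating myoblasts, were 187 to 286 CPM at day 1 in WT. They were 1169 to 1400 at day 3 and 170 to 249 at day 7. The macrophage sums given above were also highest at day 3, and the part of either in the Hgf change was not tested.

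Vegfb rose from day 3 to day 7, from 6.43 ± 1.3 to 13.4 ± 2.2 CPM in WT and from 4.39 ± 1.1 to 11.9 ± 2.3 CPM in the labelled mutant. The log2 changes were 1.06 ± 0.31 and 1.46 ± 0.32 (adjusted p = 0.008 and 0.000513 by edgeR), and with total-count scaling 0.36 and 0.64, neither called. Vegfa, near the detection limit, went from 0.412 ± 0.33 to 1.71 ± 0.44 CPM in WT (adjusted p = 0.0366) and from 0.232 ± 0.20 to 2.36 ± 1.0 CPM in the labelled mutant (adjusted p = 0.0016). The WT call was lost without day 3 library 1 or 3 or day 7 library 1 or 3, with log2 values from 1.55 to 2.03, and also without the filter on low counts and with total-count scaling. Fgf7 fell from 5.63 ± 1.6 to 2.14 ± 0.84 CPM in WT (log2 -1.40 ± 0.37, adjusted p = 0.00357).

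Fgf2 fell from day 1 to day 3, from 5.29 ± 1.3 to 2.49 ± 0.50 CPM in WT and from 5.82 ± 1.1 to 2.62 ± 1.0 CPM in the labelled mutant (adjusted p = 0.0182 and 0.00735 by edgeR). These calls were lost without day 3 library 1 or 2 in WT (log2 -0.96 and -1.05) and without day 3 library 2 in the labelled mutant (log2 -0.91). Total-count scaling ended both (log2 -0.88 and -0.72), and dropping the filter on low counts ended the WT call (adjusted p of 0.0746 by edgeR). In the labelled mutant Vegfb (log2 -1.13 ± 0.31) and Vegfc (log2 -1.32 ± 0.50) also fell, adjusted p = 0.00425 and 0.0342. The Vegfb call was lost in 1 of 13 alternatives, total-count scaling (adjusted p of 0.0574 by edgeR). The Vegfc call was lost without any of day 1 libraries 1, 2 and 3 or day 3 libraries 1 and 2, with log2 values from -1.30 to -1.01, and also with total-count scaling and in a fit of these 2 groups alone. Vegfd was 3.86 to 5.89 CPM by group mean in WT TA and was called in no day comparison.

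**Figure D4:**
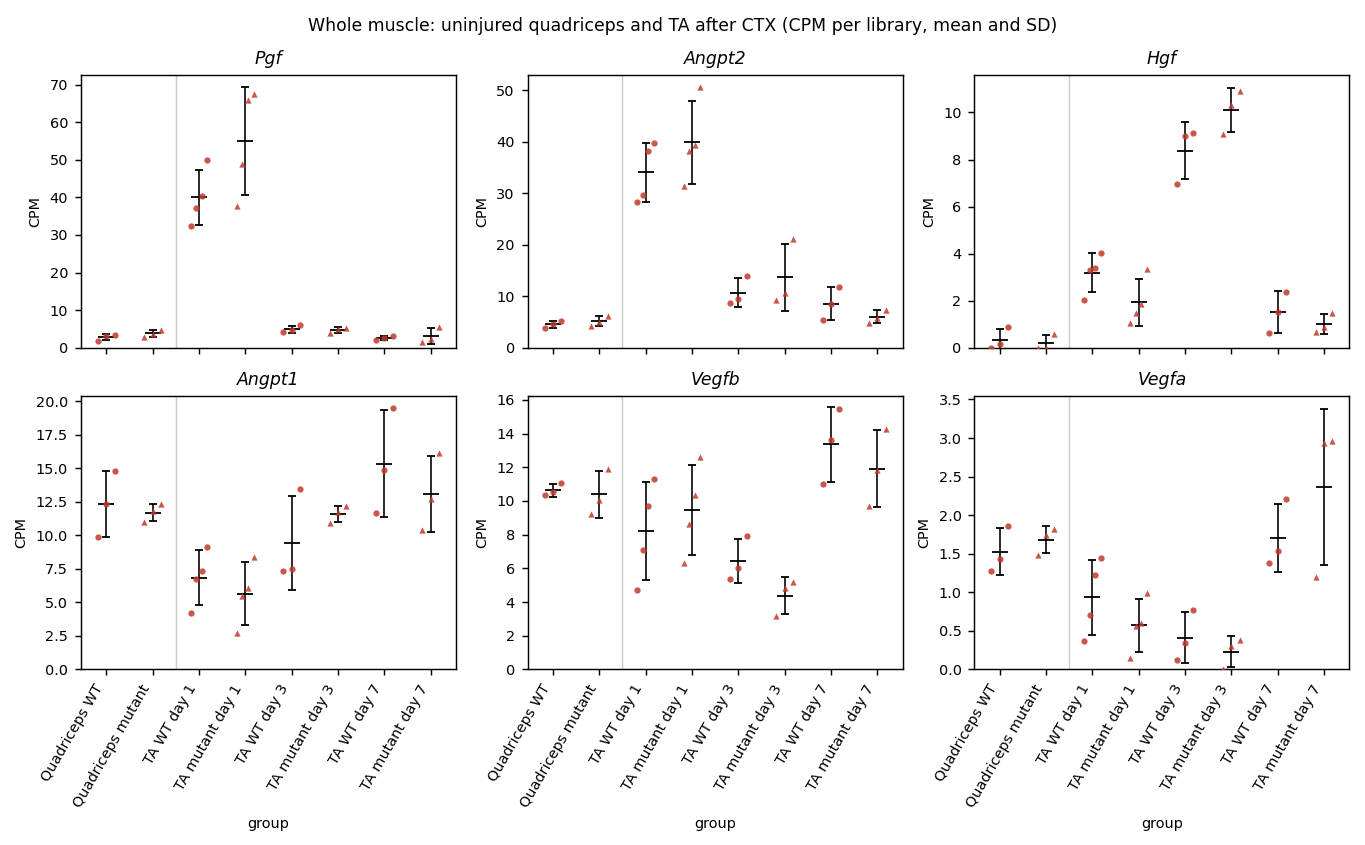
CPM of 6 factors (y axes) in uninjured quadriceps and in TA at days 1, 3 and 7 after CTX (x axis), with triangles for libraries labelled mutant and black bars for mean and SD. Among the TA days, Pgf and Angpt2 have their highest group means at day 1, Hgf at day 3 and Vegfa and Vegfb at day 7. Quadriceps and TA were scaled separately, so their levels are not ranked against each other.

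Receptors of the VEGFs and angiopoietins fell from day 1 to 3. In WT 3 of 5 VEGF receptors and co-receptors fell and none rose, and both angiopoietin receptors fell, against 26.8% of all genes called. The labelled mutant had 3 of 5 lower and 1 higher, and both angiopoietin receptors fell, against 44.6%. Over all pathway lists, of 48 tested pathway genes 3 rose and 20 fell from day 1 to 3 in WT and 7 rose and 24 fell in the labelled mutant, with medians of -0.36 and -0.72 against 0.01 and 0.00 over all genes. Flt1, the receptor of PlGF and VEGF-B, fell from 75.4 ± 6.7 to 18.1 ± 10.2 CPM in WT, Kdr from 79.2 ± 10.0 to 42.9 ± 13.1 CPM and Tie1 from 87.7 ± 5.5 to 37.8 ± 5.7 CPM. Fgfr4, a fibroblast growth factor receptor, rose from 2.47 ± 0.73 to 27.6 ± 3.7 CPM in WT. Met, the HGF receptor, rose from 18.2 ± 4.4 to 48.1 ± 7.2 CPM in the labelled mutant (log2 1.40 ± 0.19). From day 3 to 7, 13 rose and 12 fell in WT and 17 rose and 12 fell in the labelled mutant, counts to be read against the 42.5% and 52.7% of all genes called. Kdr rose to 109 ± 5.8 CPM in WT, and Plaur fell from 43.1 ± 5.0 to 6.90 ± 3.3 CPM.

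No factor was called between genotypes in TA. At day 1 0 of 10 were called against 0.0774% of genes, at day 3 0 of 10 against 8.98%, and at day 7 0 of 10 against 0%. Pgf at day 1 was 40.0 ± 7.4 CPM in WT and 54.9 ± 14 CPM in the labelled mutant, with overlap (log2 0.46 ± 0.23, adjusted p of 0.878 by edgeR). Fgf7 at day 7 was 2.14 ± 0.84 and 4.08 ± 0.98 CPM, without overlap (adjusted p of 1 by edgeR), the 1 factor with an unadjusted p below 0.05 at any day. The interaction of genotype with day called 0 of 10, none with an unadjusted p below 0.05, against 3.89% of genes. Of 15499 genes, 2759 had such a p in the interaction, and 893, 3577 and 737 between genotypes at days 1, 3 and 7.

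In uninjured quadriceps 0 of 9 tested factors were called between genotypes, with 0% of genes, and none had an unadjusted p below 0.05. Of all genes, 771 of 11856 had one. Hgf was below the filter there, at 0.861, 0 and 0.142 CPM in WT and 0, 0 and 0.581 CPM in the labelled mutant, where 3 counts equal 0.381 to 0.452 CPM. Pgf was 2.79 ± 0.85 CPM and Angpt2 4.52 ± 0.67 CPM in WT quadriceps. Quadriceps and TA are different muscles from separate cohorts and were not tested against each other.

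Heart held Vegfb at 34.6 to 55.1 CPM in every library. Between genotypes 0 of 10 factors were called in uninjured hearts, against 0% of genes, and 0 of 10 at day 3 after CTX, against 3.92%. Day 3 against uninjured called 0 of 10 in WT, against 0.103% of genes, and 0 of 10 in the labelled mutant, against 4.75%. The interaction called 0 of 10 and 0% of genes. Uninjured and day 3 hearts are separate cohorts, so injury and cohort cannot be told apart.

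Unadjusted p was below 0.05 for 2 factors between uninjured genotypes, 1 at day 3 and 4 in the labelled mutant over injury, and for none in WT or in the interaction. Of 18433 genes, 778, 3982 and 4092 were below that cut in the same order, 990 in WT and 2085 in the interaction. Vegfd in the labelled mutant was 4.22, 3.27 and 4.20 CPM uninjured and 1.82, 2.03 and 2.36 CPM at day 3, without overlap (log2 -0.91 ± 0.31, adjusted p = 0.102 by edgeR), and DESeq2 called it. Pgf at day 3 was 11.1, 5.75 and 6.13 CPM in WT and 14.4, 6.78 and 16.9 CPM in the labelled mutant (adjusted p = 0.189), and it was called without labelled mutant library 2. Flt1 and Kdr were lower in labelled mutant hearts at day 3 than uninjured, 2 of the 3 pathway calls there, beside the endothelial markers Cdh5 and Eng, and the part of endothelial cells was not tested.

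Liver held Hgf at 7.53 ± 2.9 CPM in WT and 6.25 ± 3.1 CPM in the labelled mutant (SD, n = 4), which overlapped. Of 8 tested factors 0 were called, with 0% of genes, and none had an unadjusted p below 0.05. Of all genes, 525 of 14534 had one. Pgf and Fgf7 were below the filter, and Pgf had no count in the 4 labelled mutant livers, where 3 counts equal 0.0782 to 0.109 CPM.

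Across the 29 group means, the genes most like each factor were named by the Pearson correlation of log2(CPM + 1). The groups share cohorts, tissues and depth, so these are descriptions. Fgf7 was closest to Procr (0.98), Plau (0.98) and Fst (0.98), Vegfb to Cox4i1 (0.98), Myoz2 (0.98) and Acadl (0.97), and Fgf2 to Maff (0.97), Prickle2 (0.96) and F3 (0.96). Pgf was close to Map6 (0.95) and Ppp1r15a (0.93). Angpt1 was closest to Ank2 (0.94), Auts2 (0.93) and Neo1 (0.93), Vegfc to Ntn1 (0.93), Vegfd to Loxl3 (0.92) and Hgf to Man2a1 (0.92). Vegfa and Angpt2 had no gene so close, with Alpl at 0.83 and Dnajc13 at 0.80.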

How the data were processed

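The authors' deposited counts per gene symbol were used as they stood. The submitters' processing notes name STAR 2.7.3a, featureCounts and the mm10 build. Strand setting, multi-mapping reads and annotation: not given in the sources used here. Of the columns, 78 were matched to a sample and 12 (AEX and SED MmSCs of both genotypes) to a group only, with replicates a, b and c.

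Each experiment was fitted with edgeR 4.0.16 in R 4.3.3 (filterByExpr with a minimum count of 10, TMM, robust quasi-likelihood test), with Benjamini-Hochberg adjustment over all genes tested. CTX and SED MmSCs were fitted together, though no label places them in the same cohort. Their log2 changes are from that joint fit, and their CPM from separate scalings. Day 3 and uninjured hearts were fitted over 2 cohorts. No 2 replicates agreed within sampling noise (smallest chi-square per gene 2.606 over 97 pairs). Scripts were tested on simulated data. Coordinates and exon lengths are from GENCODE M21, promoters from RefSeq GRCm38.p6.

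Members and lists were chosen with earlier results of these data known. Named genes were all members, up to 4 called genes per pathway list with the largest change where a member was called, and up to 3 of the most correlated genes with a mean of at least 5 CPM, of which 1 is not reported here. Alternatives were other scalings, no filter, a replicate block, fits on the compared groups, DESeq2 1.42.0 and leaving out each library.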

Additional observations from a re-analysis of the deposited data

Results flagged for a closer look

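In the 4 groups of 4 libraries, 39 sets of values were checked for a library far from the others of its group, and 6 had one; chance gives about 1 in 20. In WT liver, Angpt1 was 2.97 CPM in library 2, Vegfa 1.95 CPM and Pgf 0.292 CPM in library 4, and Fgf7 0.151 CPM in library 3. In labelled mutant liver, Fgf7 was 0.0292 CPM in library 3. In WT TA at day 1, Fgf2 was 3.30 CPM in library 2, below the other 3. For Fgf7 in both liver groups the other libraries had no count, so any count there stands apart by construction, and the value in the labelled mutant is 1 count, under the 3 counts used as a floor.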

How the results depend on the processing

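Pgf between genotypes after CTX was called in all 11 alternatives, with log2 values from 1.19 to 1.53. Replicate numbers did not pair the libraries (2 of 6 correlated best with their own number in the first AEX cohort), and with the number as a replicate block the count of called factors changed only there, from 0 to 1 (Angpt1). Without the filter on low counts 1 factor was called after AEX in the first cohort (Angpt1), 1 after EXT (Pgf), 1 after AEX in WT (Fgf7) and 1 in the interaction of genotype with CTX (Pgf). DESeq2 called 1 in the first AEX cohort, 1 after 2 h of Yoda1 and 1 in labelled mutant hearts over injury. With total-count scaling, chosen after seeing the data, 1 was called after 6 h of Yoda1 (Fgf7), 4 from day 1 to 3 and 7 from day 3 to 7 in labelled mutant TA, and Angpt1 from day 3 to 7 in WT TA reversed to -0.011 from 0.70. That scaling called 1578 genes higher and 629 lower of 13756 after 6 h of Yoda1. In labelled mutant TA it called 6119 higher and 1986 lower of 15499 from day 1 to 3, and 1822 and 8321 from day 3 to 7. With only the groups compared, 3 were called from day 3 to 7 in WT TA. Leaving out 1 library gave 0 to 2 calls in the first AEX cohort, 3 to 5 from day 3 to 7 in WT TA and 0 to 1 between genotypes in hearts at day 3. The cause of these shifts was not tested. Among the alternatives, the share of all genes called was computed for the scalings only, so the other counts here have no background. The 12 columns known only by group allowed no block. Factors at a few CPM rest on few counts at these depths.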
